A study of Homo sapiens with 5 samples.

Results

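The 14243 regions described here are 2 whole peak lists from chromatin immunoprecipitation sequencing (ChIP-seq). The first holds 4429 peaks of histone H3 phosphorylated at threonine 6 (H3T6ph) from a sample labelled LNCaP. The second holds 9814 peaks of the demethylase LSD1 from VCaP. Both LNCaP and VCaP are human prostate cancer cell lines that grow in response to androgen. Peaks were taken on chromosomes 1 to 22 and X, with no filter on score, and they make up 14243 of the 25897 peaks in the 3 lists of the series. The remaining list, 11654 LSD1 peaks from LNCaP, serves as the comparator. The ChIP cells of all 3 groups were not transfected, and all cells had spent 3 days on charcoal-stripped serum, which is low in steroids, ahead of a hormone stimulus whose identity the labels do not give. Both LSD1 samples used the same commercial antibody and the H3T6ph sample an antibody made in an academic laboratory. RNA came from LNCaP alone, with 1 library after a control siRNA and 1 after an siRNA against LSD1, so no RNA level of VCaP is known. Each group held 1 sample. No value has an error between replicates, and the 95% Wilson intervals given with shares cover counting error only. The number of reads behind the peak lists is unknown.

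LSD1, encoded by KDM1A, removes methyl groups from lysines of histone H3 as part of the CoREST and NuRD repressor complexes, and it has also been described as a coactivator in androgen signalling. H3T6ph is a mark that protein kinase C is known to place close to a lysine that LSD1 acts on. It has been reported to keep LSD1 from removing methyl groups from that lysine during androgen-dependent activation. The series asks what LSD1 does in androgen signalling. Setting the H3T6ph list against LSD1 of the other cell line asks how far the mark and the enzyme meet at the same places when the labels give different cell lines.

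Promoters of genes that held a peak within 1 kb of the start are printed first, as sequence at or next to a site. A printed run does not always lie under the peak. The first 5 carried a site shared by both lists at the start, and were the best by mean score rank among genes at 1 FPKM or more whose table interval belongs to that gene alone. PGK1 carried an H3T6ph peak without LSD1, and KDM1A a VCaP LSD1 peak without H3T6ph. FPKM is an RNA level scaled to transcript length and library size. Each run is the 250 bases before the transcription start, 5′ to 3′ on the gene's strand, from RefSeq on GRCh38.p14, a later build than the hg19 of the peaks. Capitals mark a GC box (GGGCGGGG) or a cAMP response element (TGACGTCA) on either strand.
CDC27: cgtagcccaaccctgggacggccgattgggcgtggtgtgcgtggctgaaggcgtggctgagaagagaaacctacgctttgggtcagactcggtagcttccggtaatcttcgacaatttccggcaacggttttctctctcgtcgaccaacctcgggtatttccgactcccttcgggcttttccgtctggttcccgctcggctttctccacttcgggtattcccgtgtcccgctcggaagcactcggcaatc
MCEE: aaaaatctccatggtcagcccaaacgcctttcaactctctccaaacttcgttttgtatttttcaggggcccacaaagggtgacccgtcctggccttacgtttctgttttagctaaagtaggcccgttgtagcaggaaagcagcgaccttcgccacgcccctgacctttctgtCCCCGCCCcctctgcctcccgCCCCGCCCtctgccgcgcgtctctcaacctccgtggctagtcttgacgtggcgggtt
TMTC3: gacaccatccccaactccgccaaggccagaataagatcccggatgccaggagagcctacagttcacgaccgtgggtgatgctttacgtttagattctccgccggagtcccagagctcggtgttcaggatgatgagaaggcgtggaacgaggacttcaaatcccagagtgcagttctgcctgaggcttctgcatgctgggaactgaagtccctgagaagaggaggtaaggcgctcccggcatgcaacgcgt
NUP42: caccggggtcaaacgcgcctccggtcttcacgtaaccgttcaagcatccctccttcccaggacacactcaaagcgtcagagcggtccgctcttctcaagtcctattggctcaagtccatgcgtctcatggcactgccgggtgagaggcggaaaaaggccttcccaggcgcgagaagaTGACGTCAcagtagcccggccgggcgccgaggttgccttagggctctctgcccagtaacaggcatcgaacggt
GIPC1: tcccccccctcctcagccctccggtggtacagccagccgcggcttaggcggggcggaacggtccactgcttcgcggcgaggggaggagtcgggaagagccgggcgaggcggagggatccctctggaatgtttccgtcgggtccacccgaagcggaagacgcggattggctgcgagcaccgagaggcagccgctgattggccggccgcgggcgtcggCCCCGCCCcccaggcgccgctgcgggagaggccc
PGK1: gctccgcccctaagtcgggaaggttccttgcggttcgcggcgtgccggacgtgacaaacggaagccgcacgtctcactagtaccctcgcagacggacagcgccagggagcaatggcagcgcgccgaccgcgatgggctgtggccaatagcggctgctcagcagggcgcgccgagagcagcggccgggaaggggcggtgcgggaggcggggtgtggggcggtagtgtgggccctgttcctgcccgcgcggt
KDM1A: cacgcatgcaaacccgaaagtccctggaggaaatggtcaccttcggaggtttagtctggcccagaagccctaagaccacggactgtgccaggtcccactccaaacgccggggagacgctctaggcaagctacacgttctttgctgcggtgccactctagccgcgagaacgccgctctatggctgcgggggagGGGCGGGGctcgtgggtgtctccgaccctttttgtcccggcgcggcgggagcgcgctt
In order, these runs lie at chr17:47189296-47189545 (minus), chr2:71130230-71130479 (minus), chr12:88142057-88142306 (plus), chr7:23181798-23182047 (plus), chr19:14496128-14496377 (minus), chrX:78103998-78104247 (plus) and chr1:23019218-23019467 (plus).

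Before the comparison, the labels were checked. The LNCaP RNA carried the luminal prostate markers, with 9 of 9 at 1 FPKM or more in the control library (15.6 to 2474 FPKM). Basal markers were at 0.0138 to 0.507 FPKM, 0 of 4 at 1 FPKM. Of neuroendocrine markers 1 of 4 reached 1 FPKM, of fibroblast and muscle markers 2 of 4 and of immune markers 1 of 3. The targeted gene KDM1A was at 37.0 FPKM in the control siRNA library and 6.87 FPKM in the LSD1 siRNA library. Peak lists have no such markers, so places where the lines are known to differ and the spread over chromosomes were looked at. By both, given next and with the chromosomes below, the H3T6ph list labelled LNCaP was nearer to the VCaP LSD1 list than to the LNCaP LSD1 list. The first of these checks rests on few H3T6ph peaks. Over the 23 chromosomes its peaks per Mb had a Spearman correlation of 0.88 with VCaP LSD1 and 0.55 with LNCaP LSD1. Copy number was not measured, and a mark, an antibody and a source of cells cannot be told apart with 1 sample of H3T6ph. Results below that set the H3T6ph list against one cell line or the other rest on its label.

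The stretch between ERG and TMPRSS2 on chromosome 21, which is deleted or rearranged in prostate cancers that carry the TMPRSS2-ERG fusion, as VCaP does, held 3 H3T6ph, 10 VCaP LSD1 and 15 LNCaP LSD1 peaks. That is 0.955, 3.18 and 4.78 per Mb, against 2.22, 5.45 and 3.20 per Mb over chromosome 21. Both H3T6ph and VCaP LSD1 were sparser there than on the rest of the chromosome and LNCaP LSD1 was denser. With only 3 peaks, the H3T6ph density in this stretch has a large counting error. ERG, the transcription factor that the fusion places under androgen control, held 2 VCaP LSD1 peaks within 20 kb and none of the other lists, and its RNA was at 0.0135 FPKM in control LNCaP.

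The 2 lists met at a minority of their peaks. Of 4429 H3T6ph peaks, 1134 shared at least 1 base with a VCaP LSD1 peak (25.6%, interval 24.3 to 26.9%), against 668 with an LNCaP LSD1 peak (15.1%, 14.1 to 16.2%). VCaP alone accounted for 804 of them (18.2%), LNCaP alone for 338 (7.63%), both LSD1 lists for 330 (7.45%), and 2957 (66.8%) met no LSD1 peak. With the LSD1 lists held to their 4429 highest-scoring peaks each, so that both had as many as H3T6ph, the shares were 18.1% (17.0 to 19.2%) for VCaP and 8.42% (7.64 to 9.28%) for LNCaP. The VCaP list covered 9.81 Mb and the LNCaP list 9.03 Mb, 0.323% and 0.298% of the span of these chromosomes. Seen from VCaP LSD1, 1132 of 9814 peaks lay under H3T6ph (11.5%, 10.9 to 12.2%), and 1206 under LNCaP LSD1 (12.3%, 11.7 to 13.0%). VCaP LSD1 thus met a different antigen with the LNCaP label nearly as often as it met the same antigen in LNCaP, although the H3T6ph list covered only 2.26 Mb. When an overlap of at least 50% of each peak was required, 13.2% of H3T6ph and 5.94% of VCaP LSD1 peaks remained.

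Scores ordered the overlap. The score is the authors' own value for each peak and serves only as a rank within a list, from 50 upward in both. Among the 10% of H3T6ph peaks with the lowest scores, 12.0% (9.29 to 15.4%) met VCaP LSD1 and 10.6% (8.09 to 13.9%) met LNCaP LSD1, which is no difference beyond counting error. Among the 10% with the highest scores the shares were 59.4% (54.7 to 63.8%) and 27.5% (23.6 to 31.9%). In steps of 25% of the list the overlap with VCaP LSD1 ran 12.3, 16.2, 25.8 and 48.1% from lowest to highest, a ratio of 3.92 between the ends, and it kept a ratio of 4.03 without peaks that also met LNCaP LSD1. VCaP LSD1 peaks met H3T6ph in 4.28% (3.18 to 5.74%) of the lowest 10% and in 35.0% (32.1 to 38.1%) of the highest 10%. At the low end they met LNCaP LSD1 more often, 6.83% (5.41 to 8.58%), and at the high end less often, 28.6% (25.9 to 31.5%). Of the top 100 H3T6ph peaks 71 met VCaP LSD1 and 40 met LNCaP LSD1. Of the top 100 VCaP LSD1 peaks 78 met H3T6ph and 49 met LNCaP LSD1. In the longest gene-free gap of a chromosome lay 9 of the top 100 H3T6ph peaks and 33 of the top 100 VCaP LSD1 peaks. The whole lists held 99 of 4429 and 182 of 9814 there. Overlap by score was not computed without these gap peaks. Peak width moves with score, from a median of 434 bases in the lowest 10% of H3T6ph to 591 in the highest 10%, and from 682 to 1162 bases in VCaP LSD1. With every peak set to 500 bases the ratio between the highest and the lowest 25% was again 3.92.

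**Figure D1:**
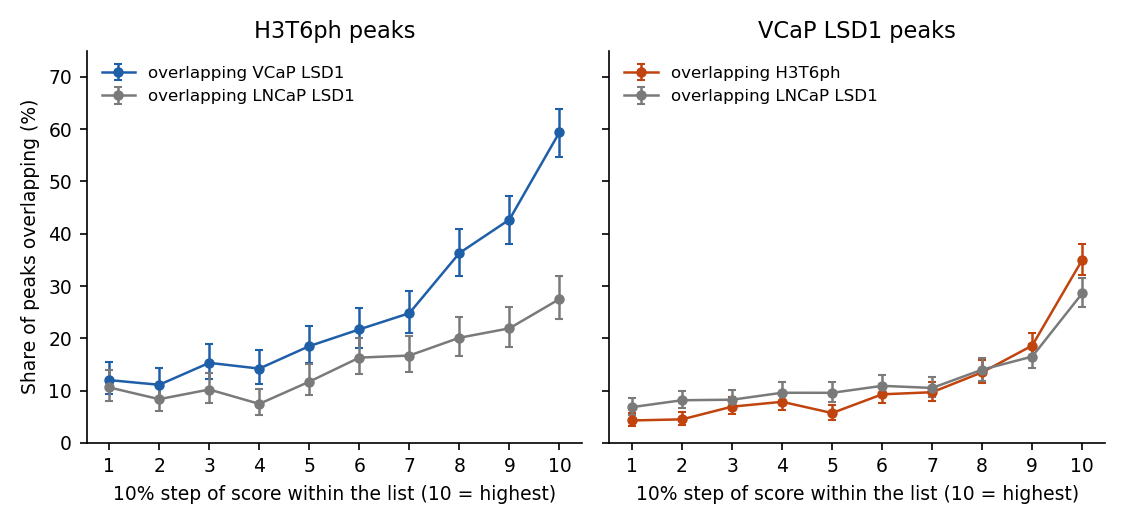
Share of H3T6ph peaks (left) and of VCaP LSD1 peaks (right) that overlap another list, in steps of 10% of score rank within their own list, with 95% Wilson intervals. For H3T6ph the 2 curves start together at 12.0 and 10.6% and end at 59.4% for VCaP LSD1 and 27.5% for LNCaP LSD1.

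At shared sites the H3T6ph peak mostly lay inside a wider VCaP LSD1 peak. There were 1134 H3T6ph peaks at shared sites, and 956 of them (84.3%, 82.1 to 86.3%) lay wholly within the VCaP LSD1 peak. Centres were within 100 bases of each other in 48.9% of pairs and within 200 bases in 74.6%, with a median offset of 102 bases. In 51.4% of pairs (48.5 to 54.3%) the overlap covered at least 50% of each peak. Peaks of both lists were wider at shared sites than elsewhere, with a median of 547 against 444 bases for H3T6ph and 1032 against 823 for VCaP LSD1. Median scores were 74.1 and 58.3 in H3T6ph and 74.6 and 59.3 in VCaP LSD1. Across the 1134 pairs the 2 scores had a Spearman correlation of 0.334, and 0.288 over the 804 pairs without an LNCaP LSD1 peak. Mappability and copy number at these sites were not measured, so the correlation is a description.

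Where the lists did not meet they were far apart. The nearest VCaP LSD1 peak lay a median of 77.7 kb from an H3T6ph peak that overlapped none, and 10.1% (9.12 to 11.2%) of such peaks had one within 10 kb. For LNCaP LSD1 the same values were 69.9 kb and 12.2%. Near misses were not more frequent for VCaP. Of H3T6ph peaks, 32 (0.723%) had their nearest VCaP LSD1 peak under 1 kb away without touching it, against 47 (1.06%) for LNCaP LSD1. The VCaP LSD1 list has fewer and wider peaks than the LNCaP LSD1 list (median 850 against 730 bases). Near misses were not counted with lists of equal number or width. At the other extreme 131 H3T6ph peaks (2.96%) were over 1 Mb from any VCaP LSD1 peak and 42 (0.948%) over 1 Mb from any LNCaP LSD1 peak. From VCaP LSD1 the nearest non-overlapping H3T6ph peak was a median of 166 kb away, in a list with fewer peaks, and 4.78% had one within 10 kb.

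**Figure D2:**
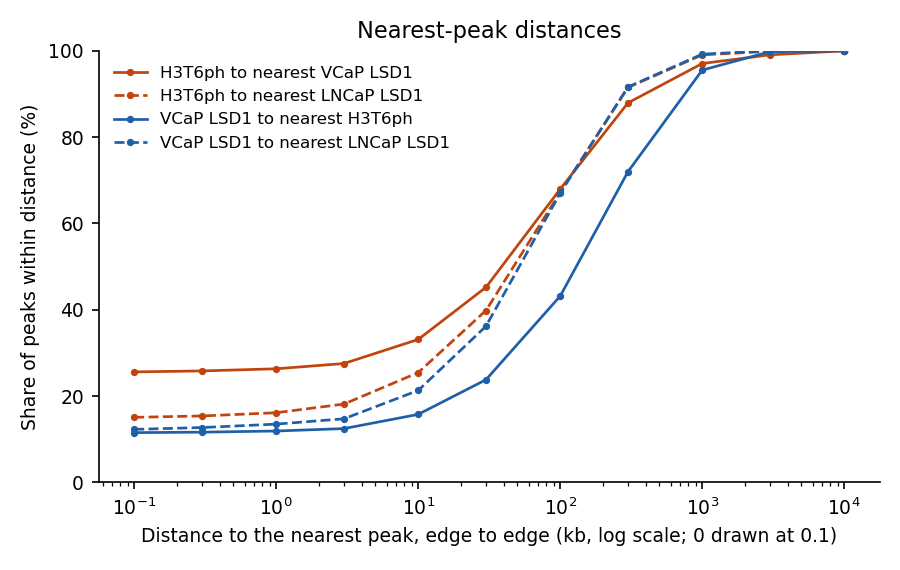
Cumulative share of peaks with the nearest peak of another list within a distance, in kb on a log scale, with overlapping peaks at the left end. H3T6ph starts at 25.6% for VCaP LSD1 and 15.1% for LNCaP LSD1, and these curves meet near 100 kb.

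The lists were also alike in which parts of the genome they favoured. Over the 23 chromosomes, peaks per Mb of H3T6ph and VCaP LSD1 had a Pearson correlation of 0.84 and a Spearman correlation of 0.88. For H3T6ph and LNCaP LSD1 these were 0.65 and 0.55, and for the 2 LSD1 lists 0.50 and 0.43. Over 309 bins of 10 Mb, and leaving out every shared site, the Pearson correlation of H3T6ph was 0.61 with VCaP LSD1 and 0.52 with LNCaP LSD1. A bin has the same reference genes and sequence for every list, the depth of each list is unknown, and no p-value is given. Gene intervals alone had a correlation of 0.46 with unshared H3T6ph and 0.58 with unshared VCaP LSD1 peaks. Chromosome 19 had the most VCaP LSD1 peaks per Mb, 9.09 against 4.70 for LNCaP LSD1, with H3T6ph at 2.27 per Mb, and also the largest share of H3T6ph peaks under VCaP LSD1, 41.8% (33.8 to 50.3%). Chromosome 16, over a span of 90.1 Mb, held 142 VCaP LSD1 and 361 LNCaP LSD1 peaks, and H3T6ph, with 128, had nearly as many as VCaP LSD1. Chromosome 18 had the lowest share of H3T6ph under VCaP LSD1, 17.8% (11.6 to 26.4%). VCaP LSD1 was densest at 18 to 19 Mb of chromosome 19 (26 peaks, 7 of H3T6ph) and at 27 to 28 Mb of chromosome 6, which lies in the large histone gene cluster (26 peaks, 0 of H3T6ph and 7 of LNCaP LSD1).

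**Figure D3:**
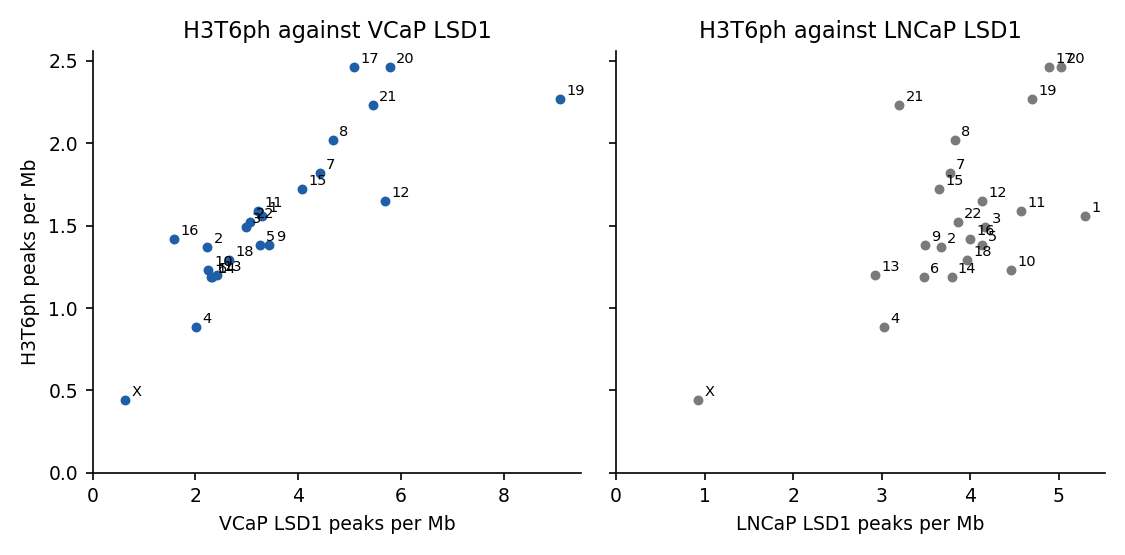
H3T6ph peaks per Mb of each chromosome against VCaP LSD1 (left) and LNCaP LSD1 (right) peaks per Mb, with 1 labelled point for each of 23 chromosomes. Points lie closer to a line on the left (Spearman 0.88) than on the right (0.55).

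H3T6ph had the smallest share of peaks at gene ends and VCaP LSD1 the largest. Peaks were classed by the gene intervals of the RNA table: at a gene end (within 1 kb of either end), inside a gene, or between genes. Of H3T6ph peaks 302 (6.82%, 6.11 to 7.60%) lay at a gene end, 43.3% inside and 49.9% between genes. Of VCaP LSD1 peaks 17.5% (16.8 to 18.3%) lay at an end, 37.3% inside and 45.1% between. LNCaP LSD1 was nearer to H3T6ph, with 9.55% (9.03 to 10.1%), 44.4% and 46.0%. Windows at gene ends make up 2.32% of the span of these chromosomes and gene intervals 39.4%. The RefSeq promoter table gives the strand, and 11940 of 22567 gene intervals had a strand and belonged to 1 gene alone. With these, 159 H3T6ph peaks (3.59%, 3.08 to 4.18%) and 1028 VCaP LSD1 peaks (10.5%, 9.88 to 11.1%) lay at the start of a gene. Only at the far end lay 40 and 140.

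At gene ends the shared sites were nearer to H3T6ph than to VCaP LSD1, and inside genes they were nearer to VCaP LSD1. H3T6ph peaks at shared sites lay at a gene end in 8.64% (7.14 to 10.4%), inside in 38.7% (35.9 to 41.6%) and between genes in 52.6% (49.7 to 55.5%). Those not shared did so in 6.19% (5.42 to 7.07%), 44.9% (43.2 to 46.6%) and 48.9% (47.2 to 50.6%). VCaP LSD1 peaks under H3T6ph were at a gene end in 9.54% (7.96 to 11.4%), against 18.6% (17.8 to 19.4%) of those that were not, and 22.4% (20.1 to 24.8%) of those under LNCaP LSD1. VCaP LSD1 peaks at gene ends met H3T6ph in 6.27% (5.22 to 7.52%), those inside genes in 11.8% and those between genes in 13.4%. With LNCaP LSD1 the order was the opposite, 15.7% (14.0 to 17.5%) at ends, 11.8% inside and 11.3% between. LSD1 in the 2 cell lines thus met most often at gene ends, and LSD1 of VCaP met H3T6ph most often away from them. From the side of H3T6ph, the few peaks that did lie at a gene end met VCaP LSD1 in 32.5% (27.4 to 37.9%), against 22.9% inside and 27.0% between genes.

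**Figure D4:**
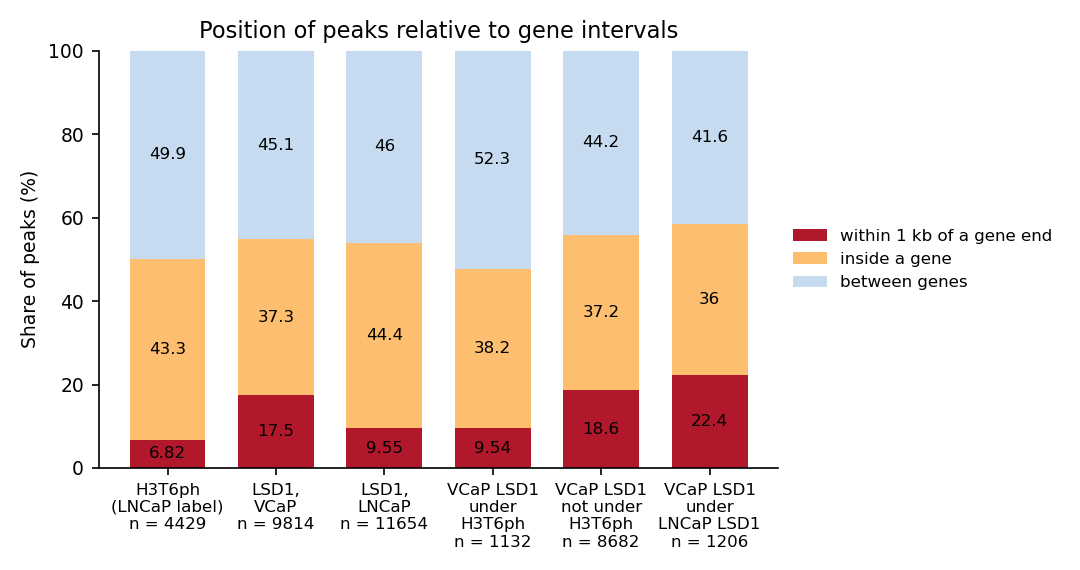
Share of peaks (%) at a gene end, inside a gene and between genes, for the 3 lists and for VCaP LSD1 peaks split by overlap. The gene-end share is 17.5% in VCaP LSD1, 9.54% under H3T6ph and 22.4% under LNCaP LSD1.

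The best pairs by mean score rank were mostly recurrent places. The leading peak of both lists was the same, inside HFM1, a meiotic DNA helicase gene (chromosome 1, 91852677 to 91853251 for H3T6ph). After it came sites in PDE3A, a cyclic nucleotide phosphodiesterase gene, and MAN1A1, a Golgi mannosidase gene. DLG2, a synaptic scaffold gene, PID1, an adaptor gene, and SLCO5A1, of the organic anion transporter family, also held one inside. The other 4 lay between genes, 130 kb from CARTPT, a neuropeptide precursor gene, 782 kb from ZNF733P, a zinc finger pseudogene, 161 kb from GALC, a lysosomal galactosidase gene, and 30.1 kb from LCOR, a ligand-dependent corepressor gene. All but the SLCO5A1 site also held an LNCaP LSD1 peak. That was so for 36 of the top 50 pairs and for 330 of all 1134. In the longest gene-free gap of each chromosome, which usually spans the centromere, lay 15 of the top 50 pairs and 62 of 1134. H3T6ph peaks in these gaps met VCaP LSD1 in 62.6% (52.8 to 71.5%), and without gap peaks the overlap of the whole lists was 24.8%. The part of repeated or poorly mappable sequence in these sites was not tested.

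Strong sites of 1 list alone fell at other genes. The highest H3T6ph peak with no VCaP LSD1 peak within 20 kb, and the second of its list, covered the start of PGK1, which encodes the glycolytic enzyme phosphoglycerate kinase (chromosome X, 77359201 to 77359934, score 846). The nearest VCaP LSD1 peak was 3517 kb away and the nearest LNCaP LSD1 peak 1311 kb away, and PGK1 RNA was at 1244 and 1319 FPKM in the control and LSD1 siRNA libraries. The next 4 were in GATA4, a transcription factor gene, 209 kb from JARID2, a Polycomb cofactor gene, in AFF3, a transcription regulator gene, and in PTPRG, a receptor phosphatase gene, with scores of 279 to 344. For VCaP LSD1 they were at ROCK1P1, a pseudogene of the kinase ROCK1 (score 1326), in ADRA1B, an adrenergic receptor gene (666), 353 kb from MIR4522 (443), at H4C3, a histone H4 gene (422), and in WWOX, an oxidoreductase gene (295). Those at ROCK1P1 and H4C3 also overlapped LNCaP LSD1.

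Genes were then sorted by the lists near them. A gene was taken as near a list if its interval or the 20 kb on either side held a peak, and 12752 genes were at 1 FPKM or more in either LNCaP RNA library. Near H3T6ph were 2305 genes (18.1%, 17.4 to 18.8%) and near VCaP LSD1 5324 (41.8%, 40.9 to 42.6%). Near both were 1437 (11.3%), of which 696 (5.46%) had a shared site and 741 (5.81%) had peaks of both lists that did not meet. Near H3T6ph alone were 868 (6.81%) and near neither list 6560 (51.4%). Of genes near H3T6ph, 62.3% were also near VCaP LSD1, and of genes near VCaP LSD1 27.0% were near H3T6ph. Longer genes have more room for peaks: the median interval was 31.8 kb over all genes, 60.9 kb near H3T6ph, 43.8 kb near VCaP LSD1 and 25.3 kb near neither. At a gene end H3T6ph was found in 297 genes (2.33%), VCaP LSD1 in 1796 (14.1%) and a shared site in 99 (0.776%). Of the tested genes 2514 share an interval with another symbol in the table and so count the same peaks.

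RNA level in LNCaP moved little with these classes. The median was 12.7 FPKM over all tested genes, 13.0 near H3T6ph, 13.0 near VCaP LSD1 and 13.0 near a shared site in the control library. VCaP LSD1 at a gene end was more frequent among genes that LNCaP expresses, 13.5% at 1 to 10 FPKM, 14.8% at 10 to 100 FPKM and 14.1% over 100 FPKM, than among the 9760 that it does not, 5.03%. For H3T6ph at a gene end these were 2.23, 2.46, 2.33 and 1.09%. After LSD1 siRNA, 245 genes were higher by 1.5-fold or more on the log2(FPKM + 1) scale (1.92%) and 304 lower (2.38%). Among the 696 genes near a shared site, 15 (2.16%) were higher and 21 (3.02%) lower, shares close to those of all genes. The median log2 change was 0.00 near a shared site and -0.01 over all genes.

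The genes with most peaks were in part the same in both lists, as with PDE4D and MYO16 below. CDC27, which encodes a subunit of the anaphase-promoting complex, had 8 H3T6ph and 7 VCaP LSD1 peaks but 1 LNCaP LSD1 peak, and 7 of its H3T6ph peaks were shared sites, the most of any gene. CDC27 is known to have near-identical copies elsewhere in the genome, so where its reads belong is uncertain. PDE4D, a cyclic AMP phosphodiesterase gene, lies in a joint interval of 1579 kb with PART1, a prostate noncoding RNA gene. The interval had 8 H3T6ph, 18 VCaP LSD1 and 16 LNCaP LSD1 peaks, with 3 shared sites. MYO16, an unconventional myosin gene, had 6 H3T6ph, 10 VCaP LSD1 and 3 LNCaP LSD1 peaks. ZFHX3, a transcription factor gene mutated in prostate cancer, had 6, 3 and 2. PALM2AKAP2, which encodes a kinase anchor protein, had 4 H3T6ph peaks, all at shared sites, and 9 of VCaP LSD1. TPD52, a gene amplified in prostate cancer, had 3 H3T6ph peaks, all at shared sites, 7 of VCaP LSD1 and 0 of LNCaP LSD1. ANKS1B and APAF1, which share an interval of 1339 kb, had 10 VCaP LSD1 peaks and 0 of H3T6ph.

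Genes that androgen induces in prostate cells lay near H3T6ph in 19 of 54 (35.2%, against 18.1% of all genes) and near VCaP LSD1 in 25 (46.3%, against 41.8%). LNCaP LSD1 was near 35 (64.8%, against 41.7%), the most of the 3 lists. A shared site was near 8 (14.8%, against 5.46%). Their median interval was 47.3 kb, longer than that of all genes. The best shared site was in TPD52 (H3T6ph score 148, VCaP LSD1 score 111), and the next in FKBP5, which encodes a cochaperone of steroid receptors (272 and 84.4), and ZBTB16, a zinc finger repressor gene (136 and 86.3). KLK3, which encodes prostate-specific antigen, and its neighbour KLK15 shared the same site, on the side of KLK3 where its androgen-responsive enhancer lies (81.0 and 81.6). CAMKK2, a kinase gene, ACSL3, a fatty acid activation gene, and ALDH1A3, an aldehyde dehydrogenase gene, had the others. Of these sites, those of ZBTB16, KLK3 and ALDH1A3 also held LNCaP LSD1 and the rest did not. FKBP5 RNA was at 190 FPKM in control and 115 FPKM after LSD1 siRNA (log2 change -0.72), the lowest log2 change of the 8.

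Other androgen-induced genes had both lists at different places or 1 list alone. STEAP4, a metalloreductase gene, had an H3T6ph peak inside its interval (score 88.1) and a VCaP LSD1 peak 1.32 kb outside it at the lowest score of that list. In ELK4, an ETS factor gene, an H3T6ph peak inside the gene (66.4) and a VCaP LSD1 peak at the end of the interval (71.5) lay apart. GREB1, a hormone-induced growth regulator gene, had 4 H3T6ph and 0 VCaP LSD1 peaks. KLK2 had an H3T6ph peak 8.77 kb away (107) and no VCaP LSD1 peak within 20 kb, though one lay just past this limit, at 20.7 kb. TMPRSS2, NDRG1, ACP3 and FOLH1, which are androgen-regulated or prostate-enriched genes, had neither list within 20 kb. For TMPRSS2 an H3T6ph peak lay just past this limit, at 20.3 kb, and the nearest VCaP LSD1 peak at 27.6 kb.

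The receptor and lineage factors had H3T6ph near 6 of 18 (33.3%, against 18.1% of all genes), VCaP LSD1 near 9 (50%, against 41.8%) and a shared site near 2 (11.1%, against 5.46%). The latter included GRHL2, an epithelial transcription factor gene, at its end. Luminal epithelial markers had H3T6ph near 7 of 15 (46.7%), VCaP LSD1 near 6 (40.0%) and a shared site near 5 (33.3%). They included KLK3, EPCAM, an adhesion molecule gene, and KRT8 and KRT18, keratin genes that share 1 interval and thus 1 site. Among androgen-lowered genes 6 of 15 (40.0%) were near H3T6ph and 3 (20%) near VCaP LSD1, with a shared site at ST7 among them. Other cell types had few tested genes. Of 5 basal markers 2 were near each list, while H3T6ph was near 0 of 3 neuroendocrine, 0 of 3 fibroblast and smooth muscle and 0 of 2 immune markers, where VCaP LSD1 was near 1 in each.

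Partners of LSD1 and writers of H3T6ph were read against all tested genes, of which 18.1% were near H3T6ph, 41.8% near VCaP LSD1, 11.3% near both and 5.46% near a shared site. Of 26 genes of the CoREST and NuRD complexes 7 (26.9%) were near H3T6ph, 9 (34.6%) near VCaP LSD1 and 5 near both. A shared site lay near 1 (3.85%), MBD2, which encodes a methyl-CpG binding protein. The median interval of these genes was 60.6 kb, against 31.8 kb over all genes. KDM1A itself had a VCaP LSD1 peak over its start (chromosome 1, 23345337 to 23346062, score 57.5) and an H3T6ph peak 1.19 kb past its other end (score 51.1). Of 12 protein kinase C and PKN genes 4 (33.3%) were near H3T6ph, 7 (58.3%) near VCaP LSD1 and 2 near both, with a shared site in PRKCH. These kinase genes are long, with a median interval of 118 kb against 31.8 kb over all genes. Whether length accounts for their higher shares was not tested. Histone demethylase and methyltransferase genes had VCaP LSD1 near 21 of 32 (65.6%, against 41.8%) and H3T6ph near 7 (21.9%, against 18.1%), and 6 were near both, with a median interval of 91.3 kb. Shared sites lay at EHMT1, a methyltransferase gene, KDM4B, a demethylase gene, and NSD3, also a methyltransferase gene.

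Over all tested genes VCaP LSD1 was at a gene end in 14.1% and H3T6ph in 2.33%, and most members of the housekeeping lists had neither there. VCaP LSD1 was at a gene end in 10 of 45 cytosolic ribosomal protein genes, 10 of 35 splicing factor genes, such as SRSF6, SRSF7 and HNRNPK, and 6 of 31 proteasome genes. H3T6ph was at a gene end in 1, 0 and 0 of the same genes, counts too small to set apart from its share over all genes. The 2 lists met within 20 kb of RPLP1, HNRNPL, SRSF9 and SRSF1, but at the end of none of them. Immediate early genes, which growth signals induce within minutes, had VCaP LSD1 near 9 of 17 (52.9%, against 41.8% of all genes), among them EGR1, JUNB, JUND, ATF3 and KLF4, and H3T6ph near 0 (against 18.1%). They are short, with a median interval of 4.07 kb against 31.8 kb over all genes. For the lists that follow the shares over all genes are again 41.8% for VCaP LSD1 and 18.1% for H3T6ph. Interferon response genes had VCaP LSD1 near 11 of 27 (40.7%) and H3T6ph near 2 (7.41%). Cholesterol synthesis genes had 7 and 6 of 24 (29.2 and 25%) with no shared site, and neuronal targets of the REST repressor 2 and 1 of 9 (22.2 and 11.1%). DNA replication genes had 15 and 6 of 41 (36.6 and 14.6%), with shared sites near POLE2 and at the end of RPA2. Mitosis genes had 7 and 5 of 26 (26.9 and 19.2%), with shared sites near BIRC5, which encodes survivin, and KIF23. Glycolysis genes had 6 and 2 of 17 (35.3 and 11.8%), with the shared site in HK2, a hexokinase gene, and p53 targets 11 and 4 of 23 (47.8 and 17.4%), with one near GDF15, a secreted stress factor gene.

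The start of a gene was where the printed promoters come in. Of 99 genes with a shared site at a gene end, 36 had it at the start, 10 at the far end, and for 53 the strand was not matched or the interval was shared. These 99 genes rest on 77 distinct H3T6ph peaks, and 28 genes had LNCaP LSD1 there as well. At CDC27 the shared site covered the start (chromosome 17, H3T6ph 45266218 to 45266868 with score 119, VCaP LSD1 45265389 to 45267125 with score 136). At MCEE, which encodes methylmalonyl-CoA epimerase, it lay at the start that faces MPHOSPH10, and MCEE RNA was at 10.1 and 6.12 FPKM (log2 change -0.64) while MPHOSPH10 was at 13.8 and 13.3 FPKM. TMTC3, an endoplasmic reticulum mannosyltransferase gene, was at 7.53 and 8.27 FPKM, and its site also held LNCaP LSD1. NUP42, a nuclear pore gene, was at 18.5 and 16.1 FPKM, and GIPC1, an adaptor gene of receptor traffic, at 58.5 and 65.2 FPKM. Of the 5 promoters with a shared site within 1 kb of the start, MCEE carried 2 GC boxes and GIPC1 carried 1 in the runs printed above. NUP42 carried a cAMP response element, and CDC27 and TMTC3 neither motif. The runs of MCEE and GIPC1 did not lie under their H3T6ph peaks. At MCEE the peak (71356751 to 71357312) lay inside the gene, which starts at 71357394 on the minus strand. At GIPC1 it (14607698 to 14608528) lay further before the start, at 14606961, than the run reaches. KDM1A carried 1 GC box and PGK1 neither motif.

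Over promoters of tested genes with 1 RefSeq start and an interval of their own, windows of 300 bases (250 before to 50 after the start) were searched on both strands. A GC box was in 41.7% of all 5316, in 34.7% (31.3 to 38.2%) of the 730 with VCaP LSD1 at the start and in 22.3% (15.4 to 31.3%) of the 103 with H3T6ph. The cAMP response element was in 3.54% of all, 3.97% (2.78 to 5.65%) with VCaP LSD1 and 8.74% (4.67 to 15.8%) with H3T6ph, which is 9 promoters. The ETS motif CCGGAAGT was in 9.97% of all, 13.0% (10.8 to 15.6%) with VCaP LSD1 and 7.77% (3.99 to 14.6%) with H3T6ph. TATAAA was in 5.49% of all and in 4 of the 26 promoters with a shared site (15.4%, 6.15 to 33.5%). The E-box CACGTG was in 10.7, 10.7 and 11.7%, the forkhead motif TGTTTAC in 2.18, 1.23 and 2.91% and the palindromic NRF1 motif in 2.61, 2.88 and 0.971% of all, VCaP LSD1 and H3T6ph promoters. The full palindromic androgen response element was in 0 of 5316. Median GC content was 65.7% over all, 63.3% with VCaP LSD1 and 62.0% with H3T6ph. Several of these motifs hold C and G, so their shares move with GC content, and a match describes the letters and not a bound site. Each motif was counted by itself, and matches of different motifs may overlap.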

How the data were processed

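There was 1 ChIP-seq peak list per sample, and the authors deposited a score for every peak, on a scale the files do not state. Per the submitters' processing notes, the build was hg19 and the tools included MACS2, Bowtie2 2.0.0, Cuffdiff 2.0.1 and TopHat2 2.0.4. Use of a control track, a duplicate filter or a blacklist was not given in the sources used here. RNA levels were deposited by the authors as FPKM per RefSeq accession, with locus intervals. The deposited p-value and q-value columns were not used.

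Of 40253 accessions 38934 (96.7%) matched a symbol in RefSeq (GRCh38.p14, names, strands and promoter sequences only). FPKM was summed per symbol, and 42 genes with failed estimates were left out. Locus starts were taken as counted from 0, since 373 of 1067 microRNA intervals then equal the hairpin length and few match otherwise. Overlap needed 1 base and was checked with bedtools 2.31.1, and the interval code was tested on simulated data. Intervals are 95% Wilson (scipy 1.17.1). RNA differences are log2(FPKM + 1) values, LSD1 siRNA minus control, and understate those of low genes, and with 1 library per group no p-value was computed.

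The members and the 22 gene lists were chosen with earlier results of these data known. Named genes are a fixed set of 14 androgen, prostate and LSD1 loci, the genes at the 10 best shared pairs and at the 5 best unshared peaks of each list, up to 4 list members with the best shared site, and the 3 genes with most peaks. The other androgen-induced ALDH1A3, ACSL3, CAMKK2 and KLK3, the GREB1 count, the members named as near VCaP LSD1 alone and EPCAM were named after their values were seen. Promoters to print were held, after their values were seen, to sites at the start of a gene with its own interval, and PGK1 and KDM1A were added. Some of the fixed loci and list members are not reported here.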

Additional observations from a re-analysis of the deposited data

Results flagged for a closer look

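Chromosome Y lay outside the comparison. It held 31 H3T6ph peaks and 40 VCaP LSD1 peaks, a signal in data that no comparison used. The comparator list, LNCaP LSD1, held 19 there. There is no peak list from a control sample to set these against.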

How the results depend on the processing

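Values without a replicate error were compared with the 95% interval of the reported value. The shares of H3T6ph and of VCaP LSD1 peaks that met the other list were 13.2 and 5.94% with 50% of each peak shared, 29.3 and 13.2% in the higher-scoring 50% of each list, 18.1 and 18.0% with the VCaP list held to as many peaks as H3T6ph, 21.2 and 9.24% without peaks that met LNCaP LSD1, and 23.9 and 10.8% with peaks of 500 bases. The ratio between the highest and lowest 25% of H3T6ph scores was 6.33 with 50% of each peak shared. Gene-end shares of H3T6ph, VCaP LSD1 and shared sites were 5.31, 15.4 and 6.44% within 500 bases and 16.6, 26.3 and 19.1% within 5 kb. For VCaP LSD1 the higher-scoring 50% gave 20.8% at gene ends and 34.6% inside, and protein-coding intervals 16.8 and 36.1%. Of non-overlapping H3T6ph peaks 4.52% had a VCaP LSD1 peak within 5 kb and 38.6% within 50 kb. Genes near H3T6ph, VCaP LSD1, both and a shared site were 13.0, 31.5, 7.56 and 3.75% within 5 kb, 27.3, 56.5, 19.5 and 8.95% within 50 kb, and 17.0, 36.8, 10.5 and 4.97% with no FPKM filter. With each distinct interval counted once, an alternative chosen after seeing the data, 40.8% were near VCaP LSD1. VCaP LSD1 had the larger gene-end share in 5 of 5 settings and H3T6ph the larger share inside genes in 3 of 3. The causes of these differences were not tested beyond the settings themselves.

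No paired analysis was possible because each group held 1 sample. Leaving out a replicate was not possible for the same reason. Sites below each list's threshold were not called, and the unknown depth limits every comparison of list sizes. H3T6ph was mapped once, and the mark, its antibody and the source of its cells cannot be told apart. No promoter or peak sequence of hg19 was used.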
